A study of Rattus norvegicus with 100 samples.

Results

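Gadd45g, Rasd1, Plk2, Cited4, Enc1, Errfi1 and Tnfrsf12a are 7 rat genes chosen by their intensity in uterus, where ethinylestradiol (EE) raised them within 2 to 4 h and again at 28 h. They are 7 of the 9030 genes with a value on any array, and of 10411 genes on the array. Because they were selected on the uterus values at 2, 4 and 28 h, those values, and the ones at 8 and 24 h that lie between, are given as a description without a test. Tests are given for what the choice left unused, which is the uterus at 48 and 72 h and the pituitary gland at all its times. The array carries 9 probe sets for these genes. The second probe sets of Cited4 and Enc1 were blank on all 100 arrays, so each gene is read by a single probe set.

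The samples came from an OECD uterotrophic assay in immature female rats, in which growth of the uterus reports estrogen action, and EE is a synthetic estrogen. Uterus was taken from control and EE groups at 2, 4, 8, 24, 28, 48 and 72 h with 5 arrays per group (70 arrays), and pituitary gland at 4, 8, 24, 48 and 72 h with 3 arrays per group (30 arrays). Total RNA was hybridised to Affymetrix RAE230A arrays, and the deposited values are linear intensities with 37.2% of the cells blank. The labels state no rat strain, age in days, dose, route or dosing schedule, no transgene or other genetic change, and not what the control animals received. They also do not say whether each array is a separate animal, and the spread behind each p-value is that between arrays, which may be technical. Values were present for 9338 to 10677 probe sets per uterus array and 9318 to 10135 per pituitary array, and array medians lay at 94.6 to 108 and 103 to 110. Prl, Gh1, Cga and Pou1f1, which mark pituitary endocrine cells, had no value on any uterus array, and the uterine homeobox genes Hoxa10 and Hoxa11 had none in pituitary. Other markers had values in both tissues. Fshb had a value on 69, Tshb on 51, Lhb on 50 and Pitx1 on 16 of 70 uterus arrays. Pgr and Acta2 had one on all 30 pituitary arrays, Esr1 on 20, Des on 19 and Myh11 on 5. The median of each was lower there than in the tissue it marks. Pomc, the precursor of corticotropin, had a value on only 1 of 30 pituitary arrays, although corticotrophs are a regular cell type of that gland.

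Estrogen acts through nuclear receptors that bind DNA directly or through other transcription factors, and in the rodent uterus a dose sets off a short burst of transcripts before the later growth of the epithelium and muscle. Several of the products of such early genes restrain the signals that induced them. Gadd45g is a small nuclear protein of the growth arrest and DNA damage family that activates stress kinases and binds Pcna and Cdk1. Plk2 is a polo-like kinase, first described as serum-inducible. Rasd1 is a Ras-like GTPase, first found as induced by dexamethasone, that acts on signalling through heterotrimeric G proteins. Errfi1 (also Mig-6) binds and inhibits the kinase of the EGF receptor family, and in mouse it restrains estrogen action in the uterus. Cited4 is a coactivator that binds the histone acetyltransferases Crebbp and Ep300. Enc1 is a kelch-repeat protein that binds actin and can serve as an adaptor of Cul3 ubiquitin ligases. Tnfrsf12a (also Fn14) is the cell surface receptor for the cytokine TWEAK, the product of Tnfsf12.

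Promoter sequence was held for 6 of the 7 genes in the RefSeq table (build GRCr8), and Enc1 is only named. The 180 bases before the start that the table uses are shown for Rasd1, Plk2 and Gadd45g, the genes with the highest 28 h differences in uterus. Capitals mark matches to motifs searched on both strands. Each line reads 5′ to 3′ on the strand of the gene, Rasd1 from chr10:45267683-45267862 (minus strand), Plk2 from chr2:43702356-43702535 (plus strand) and Gadd45g from chr17:13530352-13530531 (minus strand). The start used for Rasd1 lies inside the annotated gene (chr10:45265975-45275279), 7.6 kb from its outer 5′ end, while those of Plk2 and Gadd45g are the outer ends.
Rasd1: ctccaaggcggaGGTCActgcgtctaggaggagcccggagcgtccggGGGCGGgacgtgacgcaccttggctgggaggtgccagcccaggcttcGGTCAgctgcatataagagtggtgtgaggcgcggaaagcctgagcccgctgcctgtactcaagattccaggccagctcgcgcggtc
Plk2: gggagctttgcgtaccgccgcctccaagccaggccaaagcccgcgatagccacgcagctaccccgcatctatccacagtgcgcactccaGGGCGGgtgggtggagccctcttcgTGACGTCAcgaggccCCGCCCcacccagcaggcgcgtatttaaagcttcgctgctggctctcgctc
Gadd45g: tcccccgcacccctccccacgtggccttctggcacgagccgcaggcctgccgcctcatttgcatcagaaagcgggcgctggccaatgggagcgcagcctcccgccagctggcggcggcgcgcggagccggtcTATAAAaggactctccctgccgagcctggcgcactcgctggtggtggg
In windows of 250 bases before and 50 after the start, GGTCA, a single arm of the estrogen response element, was found at Rasd1 alone, at -168 and -86, against 40.5% of 33469 promoters. The full element, that arm, any 3 bases and TGACC, was found at 0 of the 6 genes and in 0.0269% of all promoters. Plk2 held the cAMP response element TGACGTCA at -66, a motif in 1.83% of promoters. The Sp1 motif GGGCGG was found at 5 of the 6 genes (33.1% of all), with Gadd45g the exception. This motif is all G and C, and the 6 windows were 56.7 to 67.3% GC against a median of 51.7% over all promoters. The TATA box TATAAA was found at 2, Gadd45g at -48 and Errfi1 at -35 (14.2% of all). AP-1 sites (TGACTCA, 4.63% of all) and the CArG box of serum response factor (1.64% of all) were found at none of the 6. A match of letters is not a measured binding site, and none of these matches overlapped a match of another motif.

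Gadd45g had the highest 4 h difference of the 7 genes in uterus. Control uteri read 52.2, 34.8, 52.1, 44.6 and 47.1 at 4 h, against 972, 711, 819, 827 and 1013 with EE. At 24 h controls read 67.7, 83, 87.5, 49.4 and 68.4 and EE uteri 91.7, 112, 72.3, 96.8 and 102, so that 4 of the 5 EE values lay above every control and the lowest fell inside the control range. At 28 h the 4 control values were 52.4, 50.2, 59.2 and 58.4, with the other control blank, and the EE values were 502, 567, 445, 436 and 488. Every EE value at 28 h was above every EE value at 24 h, while the control values stayed of the same order. On the log2(intensity + 30.4) scale the fitted differences, EE minus control ± SE, were 3.04 ± 0.12 at 2 h, 3.55 ± 0.12 at 4 h, 2.58 ± 0.12 at 8 h, 0.31 ± 0.12 at 24 h and 2.60 ± 0.13 at 28 h. As a ratio on that scale, the 4 h difference is 11.7-fold and the 28 h difference 6.04-fold. The EE groups ordered as 4, 2, 28, 8, 72, 48 and 24 h from high to low mean intensity, and only the step from 8 h (473) to 72 h (147) had no overlap between neighbours.

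Plk2, the kinase, ran the same course from a control level that was often blank. At 2 h the 3 control values were 73.4, 68.4 and 61.8, against 841, 566, 740.3, 552 and 527 with EE. At 4 h only 2 of 5 controls had a value (73 and 66.8), so no difference was fitted there. The EE values at 4 h were 981, 872, 592, 534 and 1189, and the difference of the group means was 3.05 on the log2 scale. At 24 h, controls with a value read 80.2, 93.1 and 73.2 and the 4 EE values were 86.6, 131, 125 and 136, of which 1 lay inside the control range. At 28 h the EE uteri were back at 809.5, 588, 545, 678 and 634, above the 3 control values of 75.9, 83.6 and 69.5. The fitted differences were 2.76 ± 0.18 at 2 h, 2.45 ± 0.15 at 8 h, 0.40 ± 0.19 at 24 h and 2.66 ± 0.18 at 28 h. The 28 h, 2 h and 8 h EE groups overlapped each other in intensity, with means of 651, 645 and 579.9.

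Rasd1, the Ras-like GTPase, stayed above control throughout and came back furthest at 28 h. Control uteri with a value read 40.3, 33, 45.3 and 34 at 4 h, and EE uteri 733, 626, 594, 742 and 700.0. At 24 h the EE arrays read 112, 78.4, 134, 125 and 127 against 44.3, 43.2, 37.9, 39.5 and 42.5 in controls, still with no overlap. At 28 h they read 581, 625, 454, 478 and 582 against 31.1, 35.9, 30.3, 54 and 38.2. The differences were 2.97 ± 0.10, 3.37 ± 0.11, 2.29 ± 0.10, 1.004 ± 0.10 and 3.07 ± 0.10 at 2, 4, 8, 24 and 28 h. The 28 h difference, 8.41-fold on the offset scale, was 91.2% of the 4 h difference in log2 units. The EE groups at 28 h (mean 544) and 2 h (mean 525) overlapped, and the 8 h group (mean 344) lay below both without overlap.

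Errfi1, the inhibitor of the EGF receptor kinase, differed from these in falling below control between its rises. At 4 h control uteri read 149.8, 118, 87.5, 155 and 155 and EE uteri 767, 645, 610.1, 649.6 and 507. By 8 h the EE values were 267, 222, 148, 210.0 and 208, the lowest of them inside the control range of 119 to 149. At 24 h every EE array (46.6, 80.6, 74.2, 73.5 and 64.2) lay below every control array (152, 176, 179, 148 and 161). At 28 h every EE array (249.5, 271, 188, 196 and 266) lay above every control array (138, 129, 128, 173 and 177), by a small margin. The difference was 1.64 ± 0.13 at 2 h, 2.04 ± 0.13 at 4 h, 0.48 ± 0.13 at 8 h, -0.99 ± 0.13 at 24 h and 0.56 ± 0.13 at 28 h, so the second rise reached 27.3% of the first while the step from 24 to 28 h was 1.54.

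Cited4, the coactivator, was the only gene of the 7 whose difference was already at its highest at 2 h. Control uteri then read 44.6, 36.6, 42.5, 32.3 and 33.5 and EE uteri 259.7, 281, 213, 170.3 and 268. The 4 h EE values, 246, 209, 259.8, 199 and 236, overlapped those of 2 h. At 24 h, 49.3, 28.2, 32.8, 29.3 and 38.1 with EE overlapped 44.5, 51.2, 48.7, 37.2 and 45.3 in controls. At 28 h the EE arrays read 166, 234, 138, 133 and 223, all above the controls at 37.8, 37.1, 35.5, 27.5 and 28.1. The differences were 1.96 ± 0.12, 1.87 ± 0.12, 1.05 ± 0.12, -0.21 ± 0.12 and 1.69 ± 0.12 in the order of the 5 times. Its control values lie near 30.4, the 10th percentile of all values, where the offset shrinks a log2 difference.

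Enc1, the kelch protein, rose to 547, 365, 393, 410.3 and 488 at 4 h against 78.2, 103, 102, 69.2 and 74.7 in controls. At 8 h the EE values had come down, with 4 of 5 below the lowest of 4 h, and were 319.8 to 379 against 64 to 85.2. At 24 h the EE arrays (76.3, 75.7, 97, 70.3 and 72.4) lay within the span of the control arrays (65.3, 104, 119, 92.7 and 72.1). At 28 h they read 243, 277, 229, 195 and 252 against 74.4, 81.3, 78.7, 78.8 and 93.8, above control but below the EE range at 8 h. The differences were 1.77 ± 0.10, 2.02 ± 0.10, 1.87 ± 0.10, -0.14 ± 0.10 and 1.26 ± 0.10 in time order, the last being 62.6% of the peak.

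Tnfrsf12a, the TWEAK receptor, started later than the other 6. At 2 h the EE uteri read 42.4, 52.9, 59.5, 42 and 63.2 against 27.7, 33.2, 42.4, 24.3 and 33.5 in controls, with overlap, and the difference was 0.39 ± 0.10. At 4 h they read 239.6, 295, 197, 225 and 173 against 34, 31.3, 34.9, 31.9 and 34.2, a difference of 1.99 ± 0.10. The 8 h values with EE, 113 to 211, stayed above controls (1.63 ± 0.10), and at 24 h the difference was -0.07 ± 0.10 with overlapping groups. At 28 h the EE arrays read 55.1, 66.1, 53.5, 61.3 and 80 against 36.7, 21.5, 28.4, 32.9 and 36.8, a difference of 0.60 ± 0.10 or 30.2% of the first rise.

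**Figure D1:**
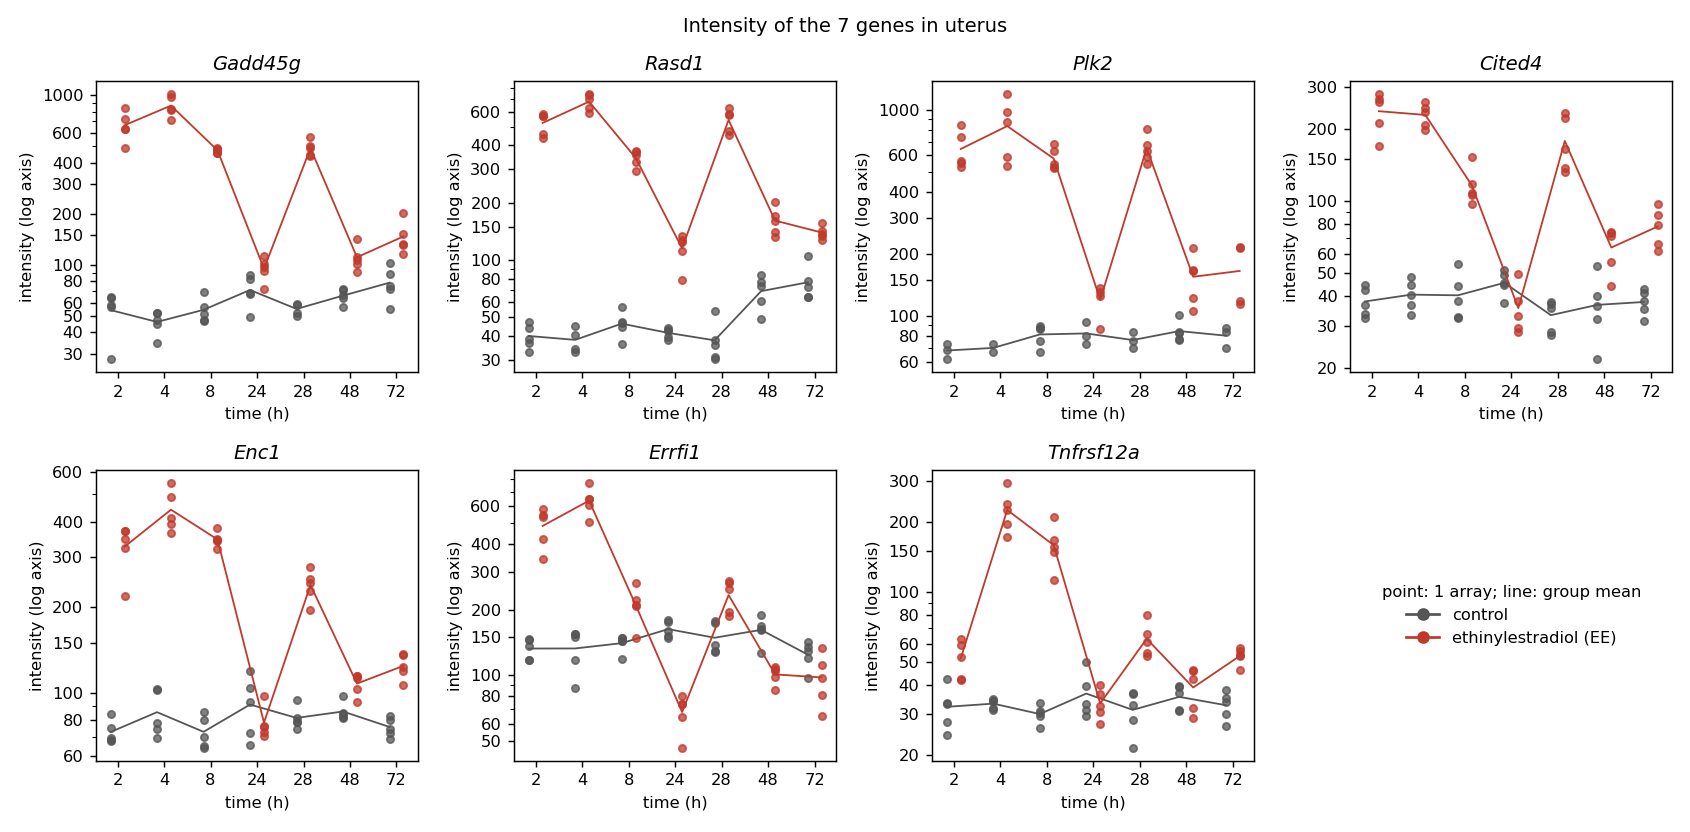
Intensity (log axis) of the 7 genes on each uterus array at 2 to 72 h, with control in grey and EE in red, a point per array and a line through the group means. All 7 genes show EE values far above control at 4 h, near or below control at 24 h except for Rasd1, and again above control at 28 h.

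The plot of uterus intensities shows these 2 waves array by array, including the low EE values at 24 h. Among the 7 genes, the number with every EE array above every control array was 6 of 7 at 2 h, all but Tnfrsf12a, where 3.74% of 7276 tested genes did so. It was 6 of the 6 fitted genes at 4 h, against 17.5% of 6955 genes. At 8 h it was 6 of 7, all but Errfi1, against 23.6% of 6959 genes. At 24 h it was 1 of 7, Rasd1, against 18.1% of 7084 genes, and 1 of 7, Errfi1, lay wholly below control, against 24.4%. At 28 h it was 7 of 7, against 21.4% of 6991 genes. The 2, 4 and 28 h counts are what the genes were chosen for. Those at 8 and 24 h lie between the chosen rises and are bound up with them. None of these counts carries weight of its own. The median difference of the 7 genes was 1.96, 2.04, 1.87, -0.07 and 1.69 at 2, 4, 8, 24 and 28 h, while the median over all genes tested stayed between -0.08 and -0.02 at these times. The labels do not say whether a further dose was given, so the timing of the 28 h rise relative to dosing cannot be stated. In whole tissue, fewer cells of a type and less RNA per cell cannot be told apart.

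**Figure D2:**
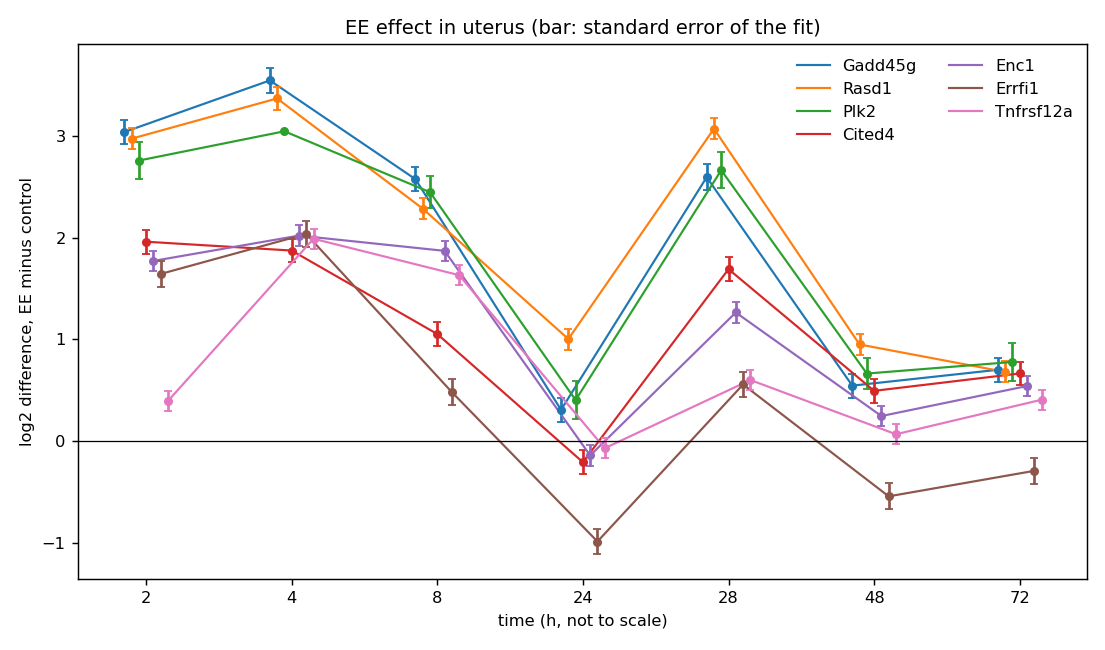
EE minus control difference on the log2(intensity + 30.4) scale at each uterus time, a line per gene, with bars for the standard error of the fit (none for Plk2 at 4 h, where only 2 controls had a value). Rasd1, Plk2 and Gadd45g stand at 2.59 to 3.07 at 28 h, Cited4 and Enc1 between 1 and 2, and Errfi1 and Tnfrsf12a near 0.6, and at 24 h Errfi1 lies at -0.99.

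The plot of fitted differences separates the genes by how much of the first rise came back. In log2 units the 28 h difference was 91.2% of the peak for Rasd1, 87.4% for Plk2, 86.2% for Cited4, 73.1% for Gadd45g, 62.6% for Enc1, 30.2% for Tnfrsf12a and 27.3% for Errfi1. The values for Plk2 rest on its 2 control values at 4 h. Markers of other cells also differed at 24 and 28 h. The summed intensity of 7 luminal and glandular epithelium markers with a value on all arrays, out of 10 listed, was 2045 to 3020 with EE and 1916 to 2646 in controls at 4 h. At 24 h it was 2905 to 4408 with EE and 1658 to 2275 in controls, and at 28 h it was 3017 to 3884 against 1602 to 2049. Taken singly, 5 of the 10 markers passed as higher and 2 as lower at each of 24 and 28 h. Over all genes tested, 24.8% passed as higher and 34.4% as lower at 24 h, and 28.4% and 34.4% at 28 h. Krt8, Krt18, Krt19, Epcam and Cldn7 were the higher ones at both times, Cldn4 was lower at both, Cldn3 at 24 h and Ocln at 28 h. Of 7 tested macrophage markers 4 were higher and 1 lower at both times, and the sum of 5 markers was 890 to 2166 with EE and 900 to 1145 in controls at 24 h, and 1139 to 1774 against 897 to 1118 at 28 h. Of the markers of stratified epithelium, 2 of 4 tested were higher at 24 h and 3 of 5 at 28 h, with medians of 2.30 and 2.28. Krt10, the only one with a value on all arrays, read 243 to 1644 with EE and 25.8 to 44.7 in controls at 24 h, and 22.1 to 961 against 17.7 to 38 at 28 h. The beta globin gene Hbb, from blood, was lower at 24 h (-0.88, adjusted p = 0.00112 by limma) and did not pass at 28 h. Of 3 tested genes from a list of neural lobe and glia markers, 1 was lower at 24 h and 2 at 28 h. Slc1a3, a glutamate transporter of glia, was lower at both times (-1.21 and -1.71), while the list median at 24 h was -0.145. The part of these markers in the 24 and 28 h values was not tested.

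At 48 h, a time the choice of genes did not use, 5 of the 7 genes were still higher with EE and Errfi1 was lower. Of all 7031 genes tested 24.2% passed as higher and 33% as lower, so many uterine genes differed at this time (limma with Benjamini-Hochberg adjustment over all genes tested, two-sided, passing at an adjusted p under 0.05). Rasd1 was at 133, 161, 202, 170.0 and 140.1 with EE against 83.1, 76.8, 49.2, 73.5 and 60.9 in controls, with no overlap, and rose by 0.95 ± 0.10 (adjusted p = 7.07e-12). Gadd45g read 91.1, 112, 142, 108 and 102 against 64.2, 70.9, 56.5, 71.7 and 66.4, also without overlap (0.55 ± 0.12, adjusted p = 8.65e-05). Plk2 read 106, 165, 213, 123 and 167 against 77.1, 101, 76.7, 83 and 83.8 (0.66 ± 0.15, adjusted p = 2.60e-04). All 5 EE values of these 3 genes lay above all 5 controls, at levels far under those of 28 h. The share of all genes separated in this way was not counted at 48 or 72 h. From 4 to 28 h it lay between 17.5% and 23.6%, so such separation was common in uterus.

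Cited4 at 48 h read 55.5, 71.6, 74.5, 43.8 and 73.6 with EE against 36.1, 40, 21.8, 53.5 and 31.9, with overlap, and was higher by 0.49 ± 0.12 (adjusted p = 2.58e-04). Enc1 read 103, 113, 114, 92.7 and 115 against 83.8, 97.4, 81.1, 81.8 and 84.7, with overlap, a rise of 0.25 ± 0.10 (adjusted p = 0.0307). That call ended when any single one of control arrays 61, 63 or 65 or EE arrays 68, 69 or 72 was left out (adjusted p = 0.0501 to 0.0656, arrays numbered as in the labels), and with an offset of 100 (adjusted p = 0.0565). Errfi1 was on the other side, at 85.6, 98.8, 107, 105 and 109 against 164, 162, 168, 126 and 189.8, without overlap, and fell by 0.54 ± 0.13 (adjusted p = 2.30e-04). Tnfrsf12a did not pass, with 42.3, 28.9, 46.5, 31.7 and 45.7 against 30.9, 31.2, 39.5, 37 and 39.2 and a difference of 0.07 (95% interval -0.13 to 0.26, adjusted p = 0.575).

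At 72 h 6 of the 7 genes were higher with EE and Errfi1 was lower, where 23.4% of 6823 genes passed as higher and 36.8% as lower. Gadd45g read 153, 132, 203, 116 and 134 with EE against 102, 75.2, 89, 71.8 and 54.7 (0.70 ± 0.12, adjusted p = 8.75e-07). Rasd1 read 127, 158, 134, 142 and 137 against 105, 77.3, 64.1, 72.1 and 63.9 (0.68 ± 0.10, adjusted p = 6.73e-08). Its controls at 48 and 72 h, 49.2 to 105, were mostly above those of the first 28 h, 30.3 to 56.5. Plk2, with 4 EE and 3 control values, read 114, 213, 118 and 216 against 83.4, 69.8 and 87.2 (0.78 ± 0.19, adjusted p = 3.39e-04). In these 3 genes every EE value was above every control value. From 4 to 28 h, 17.5% to 23.6% of all genes were so separated in uterus, and at 72 h the share was not counted.

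Cited4 (79.6, 65.8, 87.2, 61.6 and 96.9 against 35.1, 31.4, 38.1, 41.1 and 42.8) was higher by 0.67 ± 0.12 at 72 h (adjusted p = 1.70e-06), and Enc1 (123, 106, 136, 136 and 119 against 80.3, 82.6, 68.6, 72.2 and 74.5) by 0.54 ± 0.10 (adjusted p = 4.27e-06). Tnfrsf12a, which had not passed at 48 h, read 53.7, 53.4, 55.8, 46.2 and 57.4 against 35.2, 33.9, 38.1, 26.7 and 30 and was higher by 0.41 ± 0.10 (adjusted p = 2.69e-04). The groups of these 3 genes did not overlap either. The share of all genes without overlap was not counted at this time, so no weight is put on this separation. Errfi1 read 65.3, 111, 134, 81.3 and 96.8 against 142, 135, 97.7, 129 and 120.2, with overlap, and fell by 0.29 ± 0.13 (adjusted p = 0.0427). The Errfi1 call ended under array centring (adjusted p = 0.106), quantile normalization (0.0983), an offset of 100 (0.0771) and a fit of the compared groups alone (0.0605), and without any single one of control arrays 73, 75, 77 or 78 or EE arrays 79, 83 or 84 (adjusted p = 0.053 to 0.203).

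The effect at 72 h did not differ detectably from that at 48 h for any of the 7 genes. In the limma test of the difference 0 of 7 passed, where 0.505% of 6735 genes passed, and 2 of 7 had an unadjusted p under 0.05. These were Tnfrsf12a, 0.34 (95% interval 0.06 to 0.61, adjusted p = 0.25), and Enc1, 0.29 (95% interval 0.01 to 0.58, adjusted p = 0.355). So the passing of Tnfrsf12a at 72 h and not at 48 h is not shown to be a change. Markers of other cells differed at these times too. Most epithelial and macrophage markers were higher with EE, while blood markers and 2 of 3 tested genes of the neural lobe and glia list were lower. The sum of 7 epithelial markers was 4192 to 5356 with EE and 1492 to 2163 in controls at 48 h, and 4806 to 7067 against 1448 to 1911 at 72 h. The sum of 5 of 9 macrophage markers was 2128 to 2733 against 828 to 1130 at 48 h, and 2985 to 5067 against 924 to 1273 at 72 h. Of the 10 epithelial markers 8 passed as higher and 1, Cldn4, as lower at 48 h, and 8 and 0 at 72 h, and of 6 tested macrophage markers 5 and 6 passed as higher. Krt10 of stratified epithelium read 24.1 to 1587 with EE (median 889) against 30.3 to 43.4 at 48 h, and 216 to 1574 against 28.4 to 37.9 at 72 h, and 3 of 5 and 3 of 4 tested markers of that list passed as higher. Hbb, the blood marker with a value on all uterus arrays, read 449 to 763 against 904 to 1288 at 48 h, without overlap, and 596 to 1285 against 990.1 to 2081 at 72 h, with overlap. Both tested blood markers, Hbb and Alas2, passed as lower at each time. The sum of the glial markers S100b and Slc1a3 was 85.6 to 120 against 185 to 241 at 48 h and 67 to 87.2 against 185 to 270.2 at 72 h. The leukocyte gene Ptprc was higher at both times (0.82 and 0.78), as were 4 and 5 of 8 smooth muscle markers, where 24.2% and 23.4% of all genes were higher. The part of these values in the 48 and 72 h differences was not tested.

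**Figure D3:**
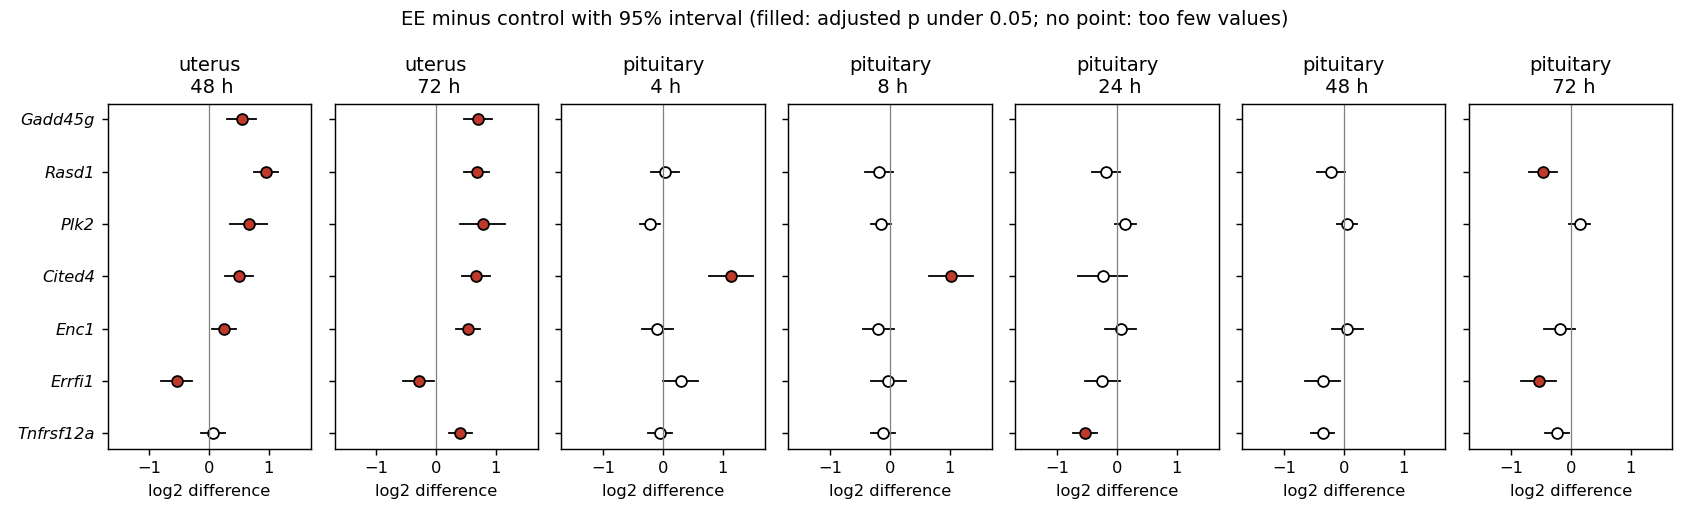
EE minus control differences (log2 scale, x axis) with 95% intervals for each gene (y axis) at uterus 48 and 72 h and at the 5 pituitary times, filled where the adjusted p was under 0.05 and left out where too few arrays had a value. In uterus the differences lie above 0 except for Errfi1, and in pituitary Cited4 at 4 and 8 h is the only gene to the right that passed.

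In the pituitary gland Cited4 was the only gene that passed as higher among the 6 that could be tested, and Gadd45g, mostly blank there, could be tested at no time. As the plot of tested differences shows, Cited4 passed as higher at 4 and 8 h, Tnfrsf12a as lower at 24 h, and Rasd1 and Errfi1 as lower at 72 h. Few pituitary genes passed at all. The shares passing as higher and lower were 1.05% and 0.439% of 6839 genes at 4 h, 1.73% and 1.82% at 8 h, 0.0292% and 0.0583% at 24 h, 0.219% and 0.102% at 48 h, and 1.76% and 0.963% at 72 h. At 48 and 72 h Cited4 could not be tested either, which left 5 genes.

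Cited4 in pituitary read 155, 92.8 and 115 with EE at 4 h against 32.5, 42.5 and 37.1 in controls, a rise of 1.14 ± 0.18 or 2.21-fold on the offset scale (adjusted p = 8.35e-04). At 8 h it read 79.3, 132 and 68.3 against 22.7, 32.3 and 32.5 (1.02 ± 0.18, adjusted p = 0.00374). All EE values lay above all control values at both times. The 8 h call ended when only the 2 groups compared were fitted (adjusted p = 0.0517). The sum of 6 epithelial markers was lower with EE at 8 h, at 1637 to 2037 against 2071 to 2182, with 1 of 6 passing as lower, and its part in the Cited4 value was not tested. At 24 h EE arrays read 33.3, 31.5 and 20.7 and the 2 controls with a value 45.7 and 32.8, a difference of -0.24 that did not pass. Errfi1 at 4 h also had its EE values, 209, 204 and 203, above its controls, 151, 178 and 158, but did not pass (0.29, adjusted p = 0.507). For Cited4 at 72 h all 3 EE arrays had a value, 45.4, 36.1 and 68.2, while all 3 controls were blank, so no fold or test can be given.

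Tnfrsf12a in pituitary read 61.2, 66.7 and 77.4 with EE at 24 h against 107, 106 and 126, and fell by 0.54 ± 0.10 (adjusted p = 0.0209). Its controls at 24 h lay above those at 4 and 8 h, which read 65.7 to 82.7 and 63.5 to 71.7. That call ended without any single one of control arrays 40 or 42 or EE arrays 43 or 44 (adjusted p = 0.0646 to 0.217), and when only these groups were fitted (adjusted p = 0.245). At 48 h 0 of 5 genes passed by limma and 2 had an unadjusted p under 0.05, Tnfrsf12a (66, 73.1 and 67.9 against 119.7, 91 and 82.8, -0.36, adjusted p = 0.11) and Errfi1 (105, 102 and 104 against 137, 151 and 135, -0.35, adjusted p = 0.39).

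Rasd1 at 72 h in pituitary read 308, 351 and 376 with EE against 541, 436 and 487, without overlap, and fell by 0.47 ± 0.11 (adjusted p = 0.022). Errfi1 read 116, 90.5 and 121 against 234, 114 and 184, with overlap, and fell by 0.54 ± 0.14 (adjusted p = 0.0367). Both calls ended without any single one of control arrays 73 or 76 or EE arrays 81 or 82, and that of Errfi1 also without EE array 83 (adjusted p = 0.053 to 0.282). Errfi1 did not pass under quantile normalization (adjusted p = 0.0567) or with only these groups fitted (0.17). Blood cell markers were lower at the same time. The sum of Hbb and Alas2 was 4965 to 5738 with EE against 6451 to 7240 in controls, without overlap, and of 3 tested blood markers Slc4a1 passed as lower (-0.72, adjusted p = 0.0381), while Hbb (-0.31) and Alas2 (-1.15) did not pass. The sum of 6 epithelial markers was 1928 to 2029 against 1780 to 1865, with 0 of 6 passing by limma and 3 at an unadjusted p under 0.05. The part of these markers in the 72 h falls was not tested.

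Plk2 and Enc1 passed at none of the 5 pituitary times, with differences of -0.22 to 0.15 and -0.19 to 0.07, and 1 of the 10 unadjusted p-values was under 0.05, that of Plk2 at 4 h (adjusted p = 0.279). At 24 and 72 h all 3 EE values of Plk2 lay above all 3 controls by a small margin, the lowest EE values being 115 and 123 and the highest controls 112 and 115. How many of all pituitary genes were separated in this way was not counted. With 3 arrays per group, no weight is put on this or other separations in the gland.

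**Figure D4:**
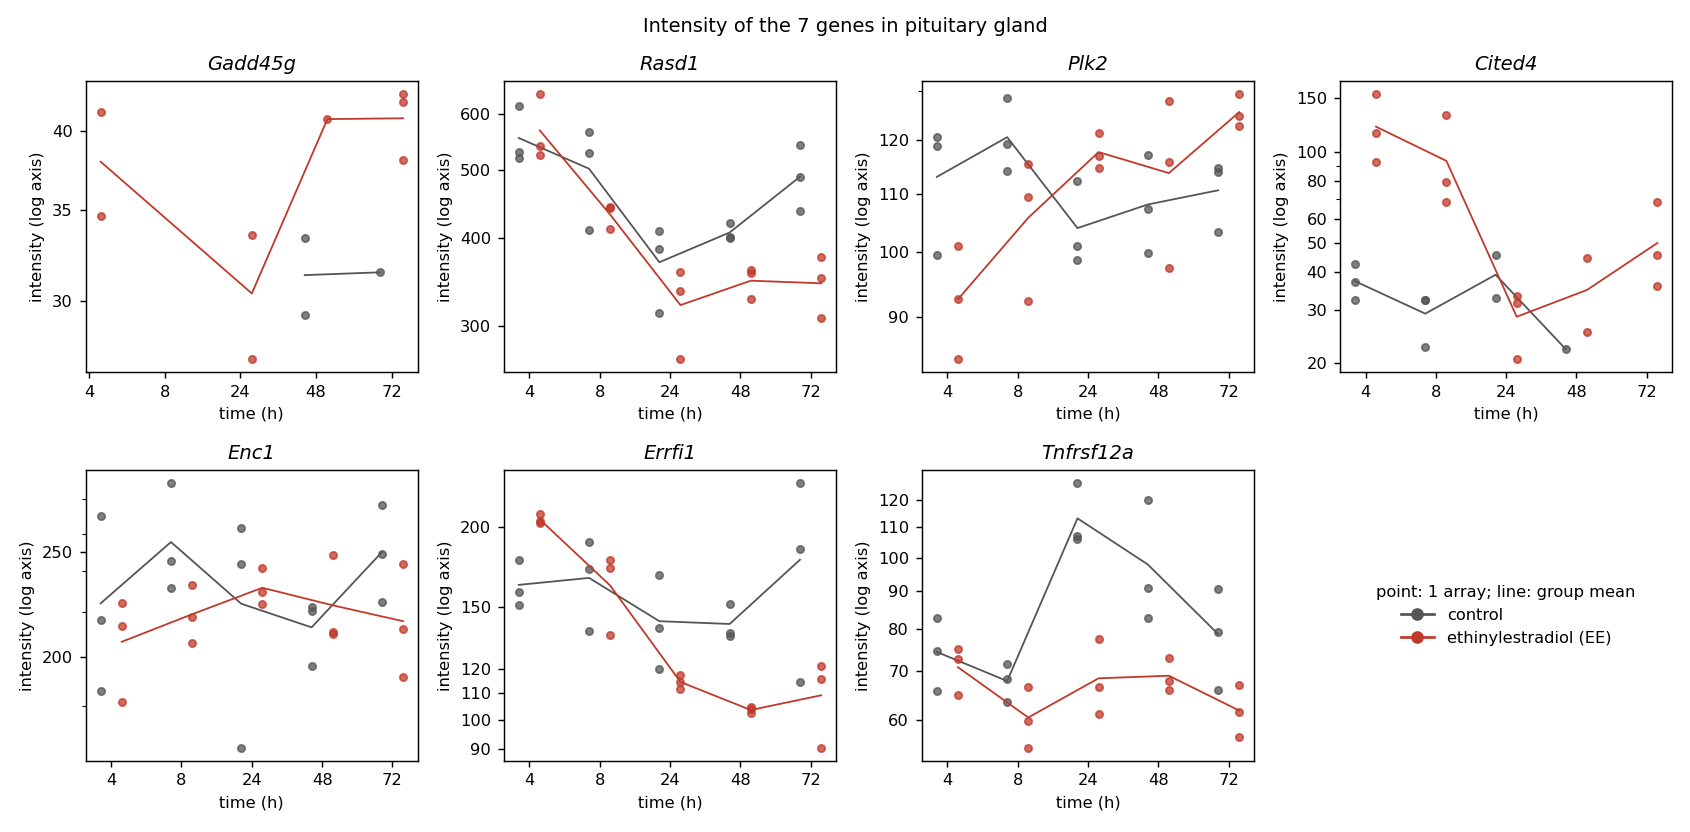
Intensity (log axis) of the 7 genes on each pituitary array at 4 to 72 h, control in grey and EE in red, a point per array with a value and a line through the group means. Cited4 at 4 and 8 h, Errfi1 at 4 h and, by a small margin, Plk2 at 24 and 72 h have all EE arrays above all controls. Of these only Cited4 passed, and the share of all genes so separated was not counted. Rasd1 lies between 269 and 639 in both groups, and Gadd45g has few points because most arrays were blank.

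The plot of pituitary intensities also shows the levels without EE, which were apart between the tissues for some of the genes. Rasd1 read 313 to 615 on the 15 pituitary control arrays (median 436) and 30.3 to 105 on the 34 uterus control arrays with a value (median 44.4), so its resting pituitary level lay within the 293 to 742 that EE uteri reached at 2, 4, 8 and 28 h. Enc1 read 165 to 290.0 in pituitary controls and 64 to 119 in uterus controls, and Tnfrsf12a 63.5 to 126 against 21.5 to 50.4, again without overlap. Plk2 read 98.9 to 128 in pituitary controls and 61.8 to 101 on the 24 of 35 uterus controls with a value, with a slight overlap. The other 11 uterus controls were blank. Gadd45g had a value on only 3 of 15 pituitary control arrays (29.3 to 33.4) and 8 of 15 EE arrays (27.2 to 42.5), against 34 of 35 uterus controls. Errfi1 overlapped, at 114 to 234 and 87.5 to 190 in controls, and so did Cited4, at 22.2 to 45.7 on the 9 pituitary controls with a value and 21.8 to 54.4 on the 35 uterus controls.

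The EE effect was set between the tissues at 48 and 72 h, the shared times that the choice of genes left unused. At 48 h 36.4% of 6249 genes differed in either direction, 940 with a higher and 1337 with a lower effect in uterus. Of the 7 genes 5 could be tested, and 3 of them had a higher effect in uterus. These were Rasd1 (1.16 ± 0.16, adjusted p = 2.13e-08), Plk2 (0.61 ± 0.22, adjusted p = 0.0226) and Tnfrsf12a (0.43 ± 0.15, adjusted p = 0.0209). At 72 h 38.6% of 5990 genes differed, 869 with a higher and 1445 with a lower effect in uterus. Of the 5 genes 4 had a higher effect in uterus, namely Rasd1 (1.15 ± 0.16, adjusted p = 2.23e-08), Enc1 (0.73 ± 0.16, adjusted p = 2.19e-04), Tnfrsf12a (0.64 ± 0.15, adjusted p = 3.73e-04) and Plk2 (0.63 ± 0.24, adjusted p = 0.0272). For Rasd1 the difference at 72 h joins a rise in uterus with a fall in pituitary.

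Errfi1 gave no detectable difference between the tissues, with -0.19 (95% interval -0.59 to 0.22) at 48 h and 0.25 (-0.16 to 0.65) at 72 h, and its EE minus control differences were below 0 in both tissues at both times. Enc1 at 48 h did not pass either (0.19, 95% interval -0.14 to 0.52). The Plk2 differences ended with an offset of 100 (adjusted p = 0.0591 and 0.0673), with blanks filled (0.208 and 0.167), at 48 h without uterus EE array 69, pituitary control array 61 or pituitary EE array 69 (0.0563 to 0.0748), and at 72 h without uterus EE array 82 or 84 or pituitary control array 73 or 75 (0.0508 to 0.0881). Without pituitary control array 61 Tnfrsf12a at 48 h also ended (adjusted p = 0.131), leaving 1 gene.

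Relatives and partners of the genes moved in both directions. Gadd45a, the other Gadd45 gene with enough values, was higher at 4 h (1.39 ± 0.12, adjusted p = 3.14e-16) but did not pass at 28 h (0.17, adjusted p = 0.187). It was lower at 24 h (-0.50), 48 h (-0.65) and 72 h (-0.74, adjusted p = 1.87e-04, 2.25e-06 and 1.12e-07), and Gadd45g was higher at 48 and 72 h. At 4 h, 23.6% of 6955 genes passed as higher and 34.5% as lower, and at 28 h 28.4% and 34.4% of 6991 did. Of 6 tested partners of Gadd45 proteins 2 were higher and 0 lower at 4 h (2 had an unadjusted p under 0.05 in limma), Mapk14 (p38) at 0.31 (adjusted p = 1.87e-05) and Pcna at 0.40 (adjusted p = 0.00171). At 28 h 3 were higher, Pcna at 1.22, Ccnb1 at 1.73 and Cdk1 at 1.92 (adjusted p = 1.08e-14, 6.16e-16 and 9.98e-17), and the kinases Mapk8 (-0.36) and Mapk9 (-0.21) were lower. These 3 cell cycle genes stood as high at 24 h, at 1.17, 1.74 and 1.99, when Gadd45g was near control. Plk4, the kinase of centriole duplication, was at 1.14 at 24 h and 1.17 at 28 h (adjusted p = 7.8e-12 and 1.83e-12) and at -0.03 at 4 h (adjusted p = 0.833).

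Rasd2, the closest relative of Rasd1, moved the other way, at -0.78 at 4 h and -1.39 at 28 h (adjusted p = 1.6e-08 and 4.48e-17). Of the 5 tested genes in this group 0 were higher and 4 lower at both times (4 had an unadjusted p under 0.05 in limma at each), where 34.5% and 34.4% of all genes were lower at 4 and 28 h. The lower ones include the inhibitory G protein subunits Gnai1 (-0.27 and -0.28) and Gnai2 (-0.25 and -0.21), and adenylyl cyclase Adcy6 (-0.45 and -0.85). Gnb1, a G protein beta subunit, did not pass. Cited2, the relative of Cited4, was likewise lower at both times (-1.44 and -1.15, adjusted p = 9.16e-25 and 2.78e-20). The acetyltransferases that Cited proteins bind, Crebbp (-0.89) and Ep300 (-0.42), were lower at 28 h, and Hif1a, which competes for the same domain, was higher (0.49 at 4 h and 0.31 at 28 h, adjusted p = 8.52e-10 and 2.73e-05). Of 7 tested kelch proteins and their partners 2 were higher and 2 lower at 4 h, and 1 and 2 at 28 h, with Nfe2l2 (0.42) and Cul3 (0.34) higher and Keap1 (-0.39) and Klhl7 (-0.26) lower at 4 h.

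Among the targets and companions of Errfi1, most EGF receptor family genes and ligands could not be tested. Erbb2 was lower at 28 h (-0.55, adjusted p = 7.53e-06), and Egfr (0.15, adjusted p = 0.249), Ereg (0.09) and Btc (0.11) did not pass then. Of 8 tested other feedback inhibitors of receptor kinases 3 were higher and 2 lower at 4 h, and 2 and 2 at 28 h, counts near the shares over all genes (23.6% higher and 34.5% lower at 4 h, 28.4% and 34.4% at 28 h). The phosphatase Dusp5 was higher at both times (0.74 and 0.62, adjusted p = 9.83e-13 and 2.21e-10), Dusp1 at 4 h (0.87, adjusted p = 2.75e-12) but not at 28 h (0.14, adjusted p = 0.17), and the Ras pathway inhibitor Spry1 was lower at both (-0.64 and -1.40). Tnfsf12, which encodes the ligand of Tnfrsf12a, was lower when the receptor was high, at -0.86 at 4 h and -0.96 at 28 h (adjusted p = 8.46e-07 and 4.38e-08), and also at 24 h (-0.55, adjusted p = 8.81e-04). In the TWEAK pathway 1 of 5 genes was higher and 1 lower at 4 h, and 1 and 1 of 6 at 28 h, the higher in each case being the NF-kappaB inhibitor Nfkbia (0.75 and 0.53).

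Immediate-early genes, which need no new protein for their induction, were mostly higher at 4 h, mostly lower at 24 h and mixed at 28 h. Of 19 tested, 15 were higher and 1, the matricellular gene Ccn2, lower at 4 h, with a median difference of 0.88. At 24 h, 2 of 19 were higher and 12 lower, with a median of -0.27. Of 20 tested at 28 h, 9 were higher and 2 lower, with a median of 0.23. Over all genes tested, 23.6%, 24.8% and 28.4% were higher and 34.5%, 34.4% and 34.4% lower at 4, 24 and 28 h, with medians of -0.08, -0.06 and -0.04. Cebpb, Fos, Klf4 and Myc, all transcription factors, were higher at both times, with 2.34, 2.08, 1.81 and 1.16 at 4 h and 1.40, 1.58, 1.86 and 0.68 at 28 h (adjusted p at 28 h = 5.21e-16, 1.09e-08, 3.12e-14 and 1.22e-09). The nuclear receptor gene Nr4a1 (1.56 and 0.63) and Zfp36, whose protein destabilises mRNA (1.24 and 0.30), were higher at both times with smaller values at 28 h, and Ccn2 was lower at both (-1.29 and -1.69). Egr1, another early transcription factor, was at 1.31 at 4 h (adjusted p = 1.02e-11) and at -0.05 at 28 h (adjusted p = 0.773). Whether a gene's 4 and 28 h effects differ was not tested here.

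Across the 7 uterus times, other genes traced a course like the mean course of the 7. Each gene's EE minus control differences were set against the mean profile of the 7, both scaled to mean 0 and SD 1, among 439 genes tested at all times with a largest difference of at least 1. The nearest were Mtcl1 (r = 0.988), Myc (0.983), the inhibin and activin subunit gene Inhbb (0.98), Cebpb (0.979), Ier2 (0.976), the kinase gene Sgk1 (0.975), Midn (0.973) and the secreted signal Wnt4 (0.963). The 7 genes themselves, though part of that mean, ran from 0.787 for Tnfrsf12a to 0.996 for Gadd45g. Cited4 (0.934), Rasd1 (0.9485) and Errfi1 (0.959) also lay below all of the other genes just named. Those were the 8 highest of the 439, so this order does not tell whether the 7 share a single course. The profiles also hold the 2, 4 and 28 h values that the 7 genes were chosen on. These r values run over 7 times that share one set of arrays and describe shape alone. Inhbb was at 3.44 at 4 h, 1.15 at 24 h, 2.80 at 28 h, 1.60 at 48 h and 2.08 at 72 h, the last 2 and the 24 h value above those of all 7 genes. Mtcl1 was at 1.10, -0.49 and 0.56 at 4, 24 and 28 h. Wnt4 reached 1.28 at 4 h but only -0.07 at 28 h, up from -0.97 at 24 h. For single genes the nearest was Mtcl1 for Gadd45g, Sgk1 for Rasd1 and for Plk2, Fos for Cited4, Myc for Enc1, Cebpb for Errfi1 and the lactate transporter Slc16a1 for Tnfrsf12a. By a rule of at least 1 at 2 or 4 h, at least 0.5 at 28 h, and at 24 h less than 0.5 of the 28 h difference, 63 of 6381 genes tested at all 7 times showed both rises. They include 6 of the 7 genes (Plk2 was not fitted at 4 h), so 57 are others, out of 129 other genes that met the early part of the rule. The rule restates what the 7 genes were chosen for, on the same values, so their place among the 63 carries no weight. At 28 h Errfi1 (0.56) and Tnfrsf12a (0.60) lay just above its cut of 0.5.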

How the data were processed

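The authors deposited linear intensity values per probe set of RAE230A arrays, with blank cells. How these intensities were summarised and scaled, and why cells are blank, is not given in the sources used here. Per the labels, 5 µg of total RNA was labelled with biotin. Values were changed to log2(value + 30.4), the offset being the 10th percentile of all values, and blanks were left out. A gene was read by its probe set of 1 gene symbol with the highest mean, and tested with a minimum of 3 values of 5 per uterus group or 2 of 3 per pituitary group.

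Under R 4.3.3, one mean per group was fitted per tissue, variances were moderated with limma 3.58.1 and p-values adjusted by the Benjamini-Hochberg method over all genes tested. The fit across tissues used all 100 arrays. The number of arrays limits the precision.

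The genes, and the gene lists, were chosen with earlier results of these data known. All 7 genes are named, then all genes of a list with up to 6 measured or the 4 with the smallest adjusted p, and the 8 genes nearest in profile. The text gives a part of these, and Fos and Egr1 were added to the immediate-early genes after their values were seen. Alternatives were other offsets (1 and 100), filled blanks, every probe set tested separately, genes with values on every array, a filter on low means, array centring, quantile normalization, fits of the compared groups alone, the replicate block and leaving out each array. Numbers in the titles are shared by uterus and pituitary arrays, but deviations from the group means of same-numbered arrays correlated by only -0.06 to 0.16 (over 0.1 in 8 of 27 pairs), so arrays were not paired. The RefSeq promoter table is of build GRCr8.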

Additional observations from a re-analysis of the deposited data

Results flagged for a closer look

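In 4 of 93 uterus groups of member values an array stood apart from the others by Dixon's test, about what chance gives at 1 in 20 groups. Pituitary groups, with 3 arrays each, were not examined in this way. Gadd45g read 27.97 on control uterus array 6 at 2 h, where the others read 56.5 to 65. Enc1 read 97.38 on control array 62 at 48 h (others 81.2 to 84.7) and 96.96 on EE array 45 at 24 h (others 70.3 to 76.3). Errfi1 read 118.6 on control array 28 at 8 h (others 144 to 149).

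The EE effect differed between uterus and pituitary, by the limma test of the difference, for Rasd1 at 48 h (1.16) and 72 h (1.15), Plk2 at 48 h (0.61) and 72 h (0.63), Tnfrsf12a at 48 h (0.43) and 72 h (0.64), and Enc1 at 72 h (0.73), all higher in uterus on the log2 scale. Uterine epithelium and macrophage marker sums were higher with EE at both times, and their part in these differences was not tested.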

How the results depend on the processing

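No passing call of the 7 genes changed direction under the alternatives run. Leaving out 1 array turned the sign of 8 differences that had not passed, and none passed with the turned sign. In pituitary these ranged from -0.0513 to 0.106 for Rasd1, -0.206 to 0.0316 for Enc1 and -0.107 to 0.0102 for Tnfrsf12a at 4 h, -0.142 to 0.0719 for Errfi1 at 8 h, -0.115 to 0.181 for Enc1 at 24 h, and -0.0163 to 0.137 for Plk2 and -0.0129 to 0.0946 for Enc1 at 48 h. The change of the Plk2 effect from 48 to 72 h in uterus ranged from -0.0126 to 0.245. The offset sets the size of a difference: Gadd45g at 4 h in uterus was 3.55 with 30.4, 4.21 with an offset of 1 and 2.72 with 100. Pituitary counts depend most on the processing. With only the compared groups fitted, passing genes went from 102 to 26 at 4 h, from 238 to 9 at 8 h and from 6 to 2 at 24 h, and for the change of effect from 48 to 72 h in uterus from 34 to 9. The passing genes of the 7 then went to 0 at 8 h, 0 at 24 h and 1 at 72 h. With blanks filled, 39 in place of 22 genes passed at 48 h in pituitary, and 82 for the change from 48 to 72 h in uterus, where centring gave 22. Requiring a mean above the tissue median left 0 of the 7 genes at 8 h in pituitary, and quantile normalization left 1 at 72 h. The cause of these changes was not tested, beyond the fewer arrays that a fit of 2 groups holds.

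Leaving out 1 array at a time gave 54 to 105 genes at 4 h in pituitary (lowest without control 16), 59 to 540 at 8 h (without EE 34 and EE 33), 0 to 5 at 24 h (0 without EE 43), 9 to 20 at 48 h (9 without control 64) and 87 to 121 at 72 h (87 without EE 81). The passing genes of the 7 ranged from 0 to 1 at 24 h and 0 to 2 at 72 h in pituitary, and from 1 to 3 for the tissue difference at 48 h. The change from 48 to 72 h in uterus gave 18 to 60 genes (18 without control 76 at 72 h, 60 without EE 69 at 48 h).

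With the title number as a replicate block (correlation 0.04) 2314 became 2351 genes with a tissue difference at 72 h and 2277 became 2314 at 48 h, and 4 and 3 of the 7 genes passed, as without it. No call of the 7 genes changed. Signals near the offset, as in Tnfrsf12a and Cited4 controls, limit how large a fold can be read.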
